A study of Mus musculus with 51 samples.

Results

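The 6 libraries described here came from 2 sets of control tumors of the mouse prostate cancer line *Myc*-CaP, out of 51 bulk RNA-seq libraries in the series. They were chosen by their sample titles alone: 3 tumors of the line given a control single-guide RNA (sgNC) and 3 tumors of the line given an empty vector (EV). The study asked how the ubiquitin-activating enzyme UBA1 acts in tumor cells and in their recognition by the immune system, by depleting *Uba1* with guide RNAs, by overexpressing it and by inhibiting its product with TAK-243. Each control line was the reference for another arm, sgNC for the sgUba1 tumors and EV for the *Uba1*-overexpressing (OE) tumors, and neither was altered in *Uba1*. The difference between them is therefore what 2 lines of the same origin show when the gene under study is not the variable.

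*Myc*-CaP cells derive from a prostate tumor of an FVB mouse carrying a prostate-directed *Myc* transgene. Both control lines are labelled wild type, epithelial and without treatment, and were grown under the skin of male FVB mice that had an intact immune system, aged 6 to 8 weeks at injection. By the study's methods the sgNC cells were transfected with a plasmid encoding Cas9 and a non-targeting guide, selected with puromycin and sorted as single cells into sublines. The EV cells were infected with a lentivirus carrying a blasticidin resistance gene and an empty expression cassette, and were selected with blasticidin. Cas9 and guide, delivery, drug and passage through a single cell thus all differ between the lines, and their parts cannot be told apart. The labels number the tumors and not the mice, and both flanks of a mouse were injected, so tumors of a group may share a mouse and p-values measure the spread between these tumors only. The samples set beside them, all *Myc*-CaP, were 7 sgUba1 tumors, 4 OE tumors, 6 tumors of vehicle-treated mice carrying cells labelled wild type, and cultured cells in pairs of libraries: untreated cells, NC cells (the cultured control guide line, given PBS) and sgUba1 cells (given PBS).

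UBA1 is the E1 enzyme that activates ubiquitin and hands it to the conjugating enzymes, the first step of ubiquitin tagging and of most protein breakdown by the proteasome. A control line is meant to share every manipulation except the one under study. Lines raised from single cells carry the expression state and any DNA gain or loss of the founder cell in all their descendants, whereas a selected pool averages over many founders.

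The guides are shown because they are the designed difference between the sgRNA lines, with the 10 bases next to the PAM, where a mismatch is least tolerated by Cas9, in capitals, 5′ to 3′.
control guide: acgtgtaaggCGAACGCCTT
sgUba1 #1: taccaatgtcCTCCTCCCGA
sgUba1 #2: tagccgtggtATCAAGCTAG
In the mouse transcripts of 55185 genes (GENCODE M21, both strands, sites followed by NGG), sgUba1 #1 matched a single gene, *Uba1* exon 5, at chrX:20669136-20669155 (GRCm38) on the strand opposite to the gene. The other guide, sgUba1 #2, matched *Uba1* exon 6 at chrX:20670263-20670282 on the strand of the gene. The control guide had no exact match in any of these transcripts, and its closest site had 5 mismatches. In the transcripts of the 24 genes with the largest differences between the control lines, described further on, its closest site had 7 mismatches, in *Kcnj12*. Introns and intergenic sequence were not searched.

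The libraries held 8651963 to 12552766 estimated counts, 8651963 to 9138573 in the EV tumors and 10668594 to 12552766 in the sgNC tumors, and 15064 of 40077 genes passed the filter on low counts. Expression is given as CPM, with library sizes adjusted by TMM factors. The second sgNC tumor stood apart from the other 5. Its log2 CPM correlated with its 2 mates at Pearson's r = 0.940 and 0.960 across genes, against 0.982 to 0.986 for the other pairs within a line, and 1.5% of its counts were mitochondrial against 1.93% to 2.51%. The biological coefficient of variation fell from 0.207 to 0.115 when it was left out. Results are therefore given with and without it.

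*Uba1* itself, the check of the labels, did not separate the control lines. It was at 315, 282 and 297 CPM in the EV tumors and 314, 321 and 333 CPM in the sgNC tumors, overlapping ranges with a log2 fold change (sgNC minus EV) of 0.11 (SE 0.08, adjusted p = 0.523, edgeR quasi-likelihood test with Benjamini-Hochberg adjustment, n = 3 and 3). The OE tumors were at 644 to 764 CPM, above both control lines. Of the 7 tumors labelled sgUba1, 3 were at 196 to 207 CPM, below every control tumor. The other 4 were at 356 to 381 CPM, above every control tumor. Of their counts 3.61% to 4.41% were mitochondrial, against 1.99% to 2.19% in the 3 with low *Uba1*. The sample titles do not name the guide or subline of a tumor, so the 3 and the 4 may be different lines. The study assessed depletion in the cell lines by Sanger sequencing and, as UBA1 protein, by immunoblot. RNA alone therefore does not show whether the 4 tumors with high *Uba1* were depleted. Counts of calls and shares that rest on the sgUba1 tumors are therefore also given without these 4.

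Between the 2 control lines, 1 of 15064 genes (0.00664%) passed an adjusted p of 0.05, *Vwa3a*, which rose in the sgNC line. Before adjustment, p was under 0.05 for 1311 genes higher in sgNC (8.7% of those tested) and 1106 lower (7.34%). For 1872 genes every sgNC tumor was above every EV tumor (12.4% of those tested) and for 1924 every sgNC tumor was below (12.8%). Among these, 313 higher and 132 lower genes differed by a factor of at least 2. Without the second sgNC tumor edgeR called 119 genes (0.783% of 15191 tested), 64 higher (0.421%) and 55 lower (0.362%), and without the first sgNC tumor 31. DESeq2, which moderates the spread differently, called 417 genes in the full set of 6, 261 higher and 156 lower. With at least 10 counts required in every library edgeR called 0 genes, with 2277 at an unadjusted p under 0.05. Since few genes passed, the genes named here are the 12 largest differences in each direction among the 618 (4.1%; 314 higher, 2.08%, and 304 lower, 2.02%) whose lines did not overlap, whose mean log2 CPM reached 1 and whose p before adjustment was under 0.01. All of them except *Vwa3a* missed the threshold on adjusted p.

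*Vwa3a* (ENSMUSG00000030889.14, chr7:120739318-120805742, plus strand, GRCm38) encodes a protein with a von Willebrand factor A domain. It was at 0.889, 0.69 and 0.538 CPM in the EV tumors and 26, 32.2 and 25.6 CPM in the sgNC tumors. The lines were far apart and the 3 tumors of each lay close together, with a log2 fold change of 5.28 (SE 0.22, edgeR adjusted p = 0.00101) and 5.16 (SE 0.21, adjusted p = 8.56e-05) without the second sgNC tumor. The EV tumors were near the level of the OE, sgUba1 and vehicle tumors: 0.547 to 1.67 CPM in OE, 0.425 to 0.979 CPM in sgUba1 and 0.329 to 1.12 CPM in vehicle tumors. In culture, without host tissue, the NC cells were at 15.7 and 18.2 CPM, the untreated cells at 1.36 and 1.11 CPM and the sgUba1 cells at 0.441 and 0.576 CPM. The NC cells differed from untreated cells by a log2 fold change of 3.76 (SE 0.20, edgeR adjusted p = 4.65e-06, n = 2 and 2), where the libraries also differed in depth, at 26768450 and 30713959 counts against 14839437 and 15227558, and in the treatment on the label, so that line and experiment cannot be told apart there. High *Vwa3a* was thus seen in the 5 libraries of the control guide line and in none of the other libraries of *Myc*-CaP tumors and cells compared here.

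*Mrap* (ENSMUSG00000039956.9, chr16:90738207-90749785, plus strand) showed the same distribution at lower counts. Its product carries the receptor of adrenocorticotropic hormone to the cell surface. *Mrap* was at 0.111, 0.115 and 0 CPM in the EV tumors, 2 counts in all, and at 9.02, 2.68 and 6.35 CPM in the sgNC tumors, 214 counts. The ratio of the summed counts, scaled to library size, was 83.6 (95% interval 22.9 to 695, which covers counting error only). All 3 sgNC tumors were above all EV tumors, and the second was the lowest of them (edgeR adjusted p = 0.129, and 0.00316 without it). The other tumors held 0 to 0.333 CPM (OE), 0 to 0.496 CPM (sgUba1) and 0.0299 to 0.224 CPM (vehicle). Of the cultured cells, the NC cells were at 3.54 and 4.09 CPM, untreated cells at 0 and 0.0737 CPM and sgUba1 cells at 0 and 0.136 CPM.

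*Sema5a* (ENSMUSG00000022231.10, chr15:32244810-32696341, plus strand), a semaphorin that guides axons and vessels, and *Snhg18* (ENSMUSG00000096956.2, chr15:32240565-32244662, minus strand), a long non-coding RNA that hosts small nucleolar RNAs, lie head to head on chromosome 15 with starts 148 bp apart, and both were lower in the sgNC tumors. *Sema5a* was at 56.4, 67.6 and 43.9 CPM in EV and 8.59, 3.97 and 6.19 CPM in sgNC tumors, a log2 fold change of -3.15 (SE 0.30, edgeR adjusted p = 0.0555, and 0.00316 without the second sgNC tumor). *Snhg18* was at 3.56, 4.83 and 4.62 CPM and 1.35, 0.298 and 0.873 CPM, a log2 fold change of -2.32 (SE 0.44, edgeR adjusted p = 0.222, and 0.0477). For neither gene did the lines overlap, and the second sgNC tumor was the lowest for both. Cultured NC cells were also lower than untreated cells, 1.4 and 1.75 against 10.8 and 8.92 CPM for *Sema5a* (log2 fold change -2.65, edgeR adjusted p = 6.52e-05) and 0 and 0.273 against 1.36 and 1.25 CPM for *Snhg18* (log2 fold change -3.15, adjusted p = 0.0116). The sgUba1 cells, at 0.847 and 1.39 CPM for *Sema5a* and 0.0678 and 0.17 CPM for *Snhg18*, lay below the NC cells for the first gene and between them for the second. Among the sgUba1 tumors the 3 with low *Uba1* held 0.788 to 2.35 CPM of *Snhg18* and the 4 with high *Uba1* 14.7 to 24.9 CPM, below and above the EV tumors. For *Sema5a* the corresponding values were 9.06 to 24.9 and 42.7 to 75.8 CPM.

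The stretch between the 2 starts is shown because a pair of genes that are low together share it: chr15:32244663-32244809, GRCm38.p6, plus strand, RefSeq, with CG dinucleotides in capitals.
Sema5a and Snhg18: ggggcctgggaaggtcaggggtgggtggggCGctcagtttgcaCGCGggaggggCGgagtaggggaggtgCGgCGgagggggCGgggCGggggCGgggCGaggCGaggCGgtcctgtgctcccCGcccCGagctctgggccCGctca
These 147 bases held 15 CG dinucleotides, were 78.9% G or C, and had 5 matches to GGGCGG, counted on both strands and with overlaps. In the window of 300 bases at the gene start, *Sema5a* held 23 CG and *Snhg18* 31 CG, counts reached by 21.5% and 10.6% of 32851 RefSeq promoters, and GGGCGG occurred in 35.7% of these promoters. The *Vwa3a* promoter held 3 CG, which 76.7% of promoters reach. *Mrap* was not matched. The files hold no measurement of methylation or binding at these windows.

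**Figure D1:**
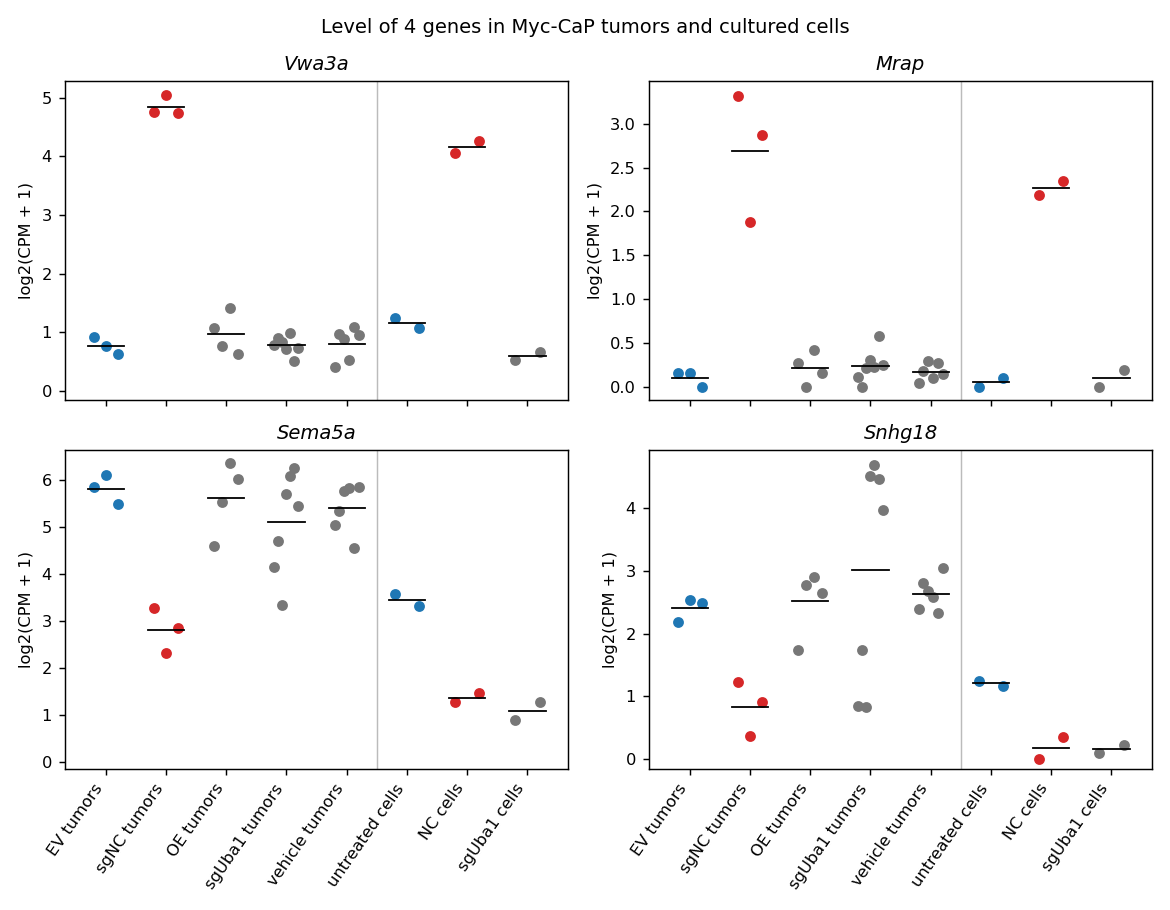
Level of *Vwa3a*, *Mrap*, *Sema5a* and *Snhg18* as log2(CPM + 1) in each library (points) with the mean of each group (line), for 5 groups of tumors and, to the right of the grey line, 3 groups of cultured cells. Red points are the control guide line and blue points the EV tumors and untreated cells. *Vwa3a* and *Mrap* were high in the red groups alone, and *Sema5a* was lower in the red groups than in the blue ones, in tumors and in culture.

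The other genes with the largest excess in the sgNC line were led by its second tumor. *Krt19*, a keratin of simple epithelia, was at 21.3, 34.2 and 35.9 CPM in EV and 229, 1032 and 296 CPM in sgNC tumors, without overlap (log2 fold change 4.09, SE 0.64, edgeR adjusted p = 0.215). Without the second tumor the difference was 3.10 (SE 0.20, adjusted p = 0.00187), and in cultured NC against untreated cells it was 1.84, at 493 and 575 against 152 and 144 CPM (adjusted p = 2.25e-06). *Krt15*, a keratin of basal cells whose gene lies 4882 bp from *Krt19*, was at 41.7, 151 and 61.5 CPM in EV and 185, 1280.2 and 499 CPM in sgNC tumors, but at 183 to 978 CPM in vehicle tumors and 906 and 941 against 1137 and 1118 CPM in NC and untreated cells. Vehicle tumors held 65.5 to 321 CPM of *Krt19*. For both keratins the EV tumors were thus the low group among the wild-type tumors, and the vehicle tumors overlapped the sgNC tumors. *Kcnj12*, an inward rectifier potassium channel, was at 1.11, 2.41 and 0.968 CPM in EV and 5.73, 133 and 9.52 CPM in sgNC tumors, where a single tumor was more than 10 times the others. In vehicle tumors *Kcnj12* was at 2.9 to 48.8 CPM, above the EV tumors and overlapping the sgNC tumors.

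*Clcf1*, *Rab3b* and *Ido1* were also highest in the second sgNC tumor. *Clcf1*, a cytokine of the interleukin 6 family, was at 4.0, 7.7 and 3.33 CPM in EV and 16.6, 179 and 32.9 CPM in sgNC tumors, and *Rab3b*, a small GTPase of regulated secretion, at 5.33, 9.19 and 6.56 and 15.3, 175 and 35.7 CPM. *Ido1*, the interferon-induced enzyme that degrades tryptophan, was at 2.67, 15.4 and 7.74 CPM in EV and 24.4, 170.3 and 44.3 CPM in sgNC tumors. In all 3 the lines did not overlap, and the vehicle tumors, at 14.1 to 70.9, 16.2 to 72.9 and 17 to 97 CPM, were all above the 3 EV tumors. Without the second tumor the log2 fold changes were 2.30, 1.86 and 2.0 (edgeR adjusted p = 0.0468, 0.0578 and 0.0961).

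For the remaining genes of this direction the highest tumor was mostly another. *Cck*, the peptide hormone cholecystokinin, was at 0.333, 2.76 and 5.05 CPM in EV and 31.4, 8.14 and 135 CPM in sgNC tumors, where the third tumor was the highest, and at 207 and 201 CPM in NC against 7.95 and 6.71 CPM in untreated cells (log2 fold change 4.78, edgeR adjusted p = 4.55e-09). *Slc14a1*, a urea transporter, was at 0.222, 0.23 and 0.108 CPM in EV, 5 counts in all, and 1.01, 5.06 and 12.9 CPM in sgNC tumors, 226 counts, a ratio of 35.3 (95% interval 14.9 to 110, counting error only). In culture *Slc14a1* was at 209 and 195 CPM in NC and 71.8 and 68.5 CPM in untreated cells, far above its level in the tumors compared here. *Tex101*, a surface protein of germ cells in the testis, was at 1.67, 1.95 and 1.61 CPM in EV and 11.8, 13.4 and 34.1 CPM in sgNC tumors, above all OE, sgUba1 and vehicle tumors (at most 6.66 CPM), but at 0.219 and 0.195 CPM in NC and 0.53 and 0.295 CPM in untreated cells. *Ptpru*, a receptor tyrosine phosphatase, was at 1.67, 2.3 and 2.69 CPM in EV and 11.7, 26.3 and 16 CPM in sgNC tumors, yet in culture the NC cells, at 5.69 and 5.88 CPM, were below the untreated cells, at 19.6 and 22.7 CPM (log2 fold change -1.88, adjusted p = 2.63e-05). Vehicle tumors held 2.87 to 60.3 CPM of *Cck*, 0.483 to 14 CPM of *Slc14a1* and 5.36 to 20.3 CPM of *Ptpru*. Each of these ranges overlapped that of the sgNC tumors.

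The genes with the largest deficit in the sgNC line included several secreted proteins. *Apoa4* and *Apoa1*, apolipoproteins whose genes lie 10230 bp apart on chromosome 9, were at 49, 37.1 and 28.8 CPM and 8.33, 5.86 and 5.91 CPM in EV tumors, and at 2.7, 2.28 and 0.714 CPM and 0.59, 0.198 and 0.397 CPM in sgNC tumors. The lines were clearly separate for both, with log2 fold changes of -4.34 (SE 0.43) and -4.02 (SE 0.36), each at an edgeR adjusted p of 0.0555, and of 0.00692 without the second sgNC tumor. Vehicle tumors lay between the lines for *Apoa4*, at 1.41 to 14.5 CPM, which overlaps the sgNC range. *Apoa4* was at 0 in all 6 cultured libraries, so its signal was measured in tumors only. The acute phase genes *Saa1* and *Saa4*, serum amyloid A proteins 7894 bp apart on chromosome 7, were at 16.7, 9.31 and 10.3 and 16.1, 13.1 and 14.9 CPM in EV and 2.27, 0.198 and 1.11 and 4.89, 2.28 and 1.51 CPM in sgNC tumors, with log2 fold changes of -3.29 and -2.34 (edgeR adjusted p = 0.222 and 0.215). *Klk1b11* and *Klk1b9*, kallikrein proteases 15501 bp apart, were at 21.1, 9.42 and 9.89 and 5.22, 2.3 and 4.73 CPM in EV and 2.78, 0.595 and 0.556 and 1.1, 0.397 and 0.238 CPM in sgNC tumors. The Saa and Klk1b families hold close copies between which reads could be shared, so the split among their members is uncertain.

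*Cdcp3* was by far the most abundant of these genes, at 6228, 3983 and 4367 CPM in EV and 845, 70.2 and 319.8 CPM in sgNC tumors (log2 fold change -3.56, SE 0.82, edgeR adjusted p = 0.222, and 0.0261 without the second sgNC tumor). The lowest EV tumor was above every sgNC tumor, the other groups ranged over 144 to 3596 CPM (OE), 882 to 3473 CPM (vehicle) and 657 to 15332 CPM (sgUba1), and cultured cells of all kinds held under 10 CPM. *Cyp2f2*, a cytochrome P450 known from airway club cells, was at 23.3, 13.1 and 14.1 CPM in EV and 1.77, 0.397 and 1.11 CPM in sgNC tumors. *Fam89a* was at 16.9, 13.9 and 12.5 CPM in EV and 2.95, 0 and 2.62 CPM in sgNC tumors. *Retnla*, a secreted protein of alternatively activated macrophages and epithelia, was at 5.56, 2.18 and 13.2 CPM in EV and 0.337, 0.198 and 0.714 CPM in sgNC tumors. In all of these the control lines did not overlap. *Cyp2f2* was at 0.505 to 8.86 CPM in OE, 3.59 to 23.1 in vehicle and 1.18 to 59.3 in sgUba1 tumors. For *Fam89a* these ranges were 0.202 to 5.58, 1.42 to 10.5 and 2.36 to 82 CPM. For *Retnla* they were 0.0995 to 0.583, 0.242 to 2.84 and 0.354 to 50.7 CPM. Each of the OE ranges overlapped that of the sgNC tumors, so the low levels were not particular to sgNC. *Fam89a*, *Cyp2f2* and *Retnla* were at or near 0 in every cultured library.

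**Figure D2:**
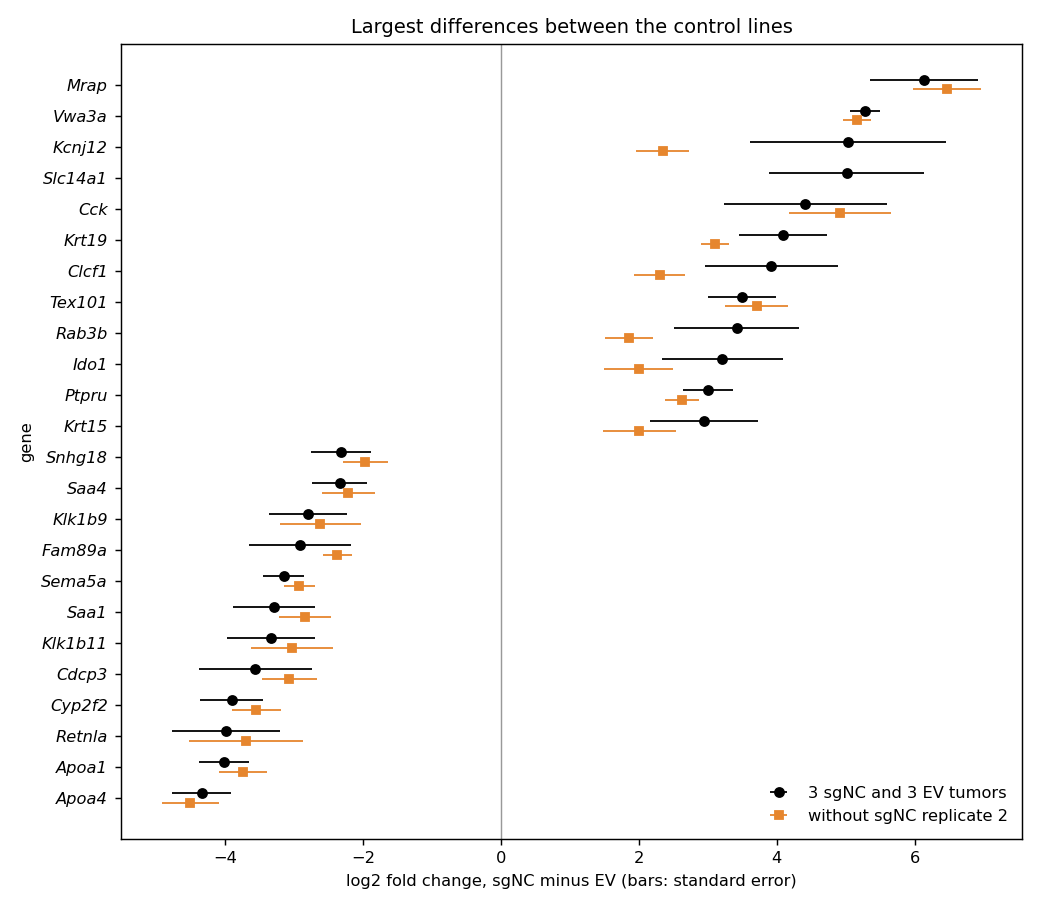
Log2 fold change (sgNC minus EV) with its standard error for the 12 genes of largest increase and the 12 of largest decrease, from all 6 tumors (black) and without the second sgNC tumor (orange). *Slc14a1* has no orange point because it did not pass the filter on low counts in that fit. The differences of *Kcnj12*, *Clcf1*, *Rab3b*, *Ido1* and *Krt15* shrank without that tumor, those of *Vwa3a*, *Mrap*, *Apoa4* and *Sema5a* moved little.

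For the interferon axis that the study turns on, no gene separated the control lines past the threshold. *Stub1*, the ubiquitin ligase, was at 75.3, 72.5 and 70.7 CPM in EV and 72.7, 67.9 and 74.1 CPM in sgNC tumors (log2 fold change -0.03, SE 0.08), and *Jak1*, the kinase of interferon receptors, at 103, 111 and 115 and 119, 156 and 118 CPM (log2 fold change 0.25, SE 0.13). *Ifngr1*, a chain of the interferon gamma receptor, was at 27.9, 28.2 and 27 and 25.5, 38.1 and 41.4 CPM, with overlapping values (log2 fold change 0.34, edgeR adjusted p = 0.399). Of the 19 genes of the list around *Uba1*, *Stub1* and JAK-STAT signalling 13 were higher and 6 lower, none called. Among them *Socs3*, the feedback inhibitor of cytokine signalling, named here after its values were seen, was at 13.9, 14 and 15.1 CPM in EV and 23.1, 44.8 and 32.7 CPM in sgNC tumors, separate ranges (edgeR adjusted p = 0.222, and 0.0494 without the second sgNC tumor), with a log2 fold change of 1.22 in tumors and 0.65 in cells (adjusted p = 0.00584).

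Downstream of interferon more genes were lower than higher in the sgNC tumors, none past the threshold. *Cxcl9* and *Cxcl10*, chemokines that attract T cells, were at 3.0, 14.2 and 13.1 and 1.56, 2.76 and 2.69 CPM in EV and 6.23, 2.58 and 3.41 and 1.1, 0.794 and 1.19 CPM in sgNC tumors, log2 fold changes of -1.30 (SE 0.59) and -1.16 (SE 0.33). The values overlapped for *Cxcl9* and not for *Cxcl10*. Over the list of interferon-stimulated genes the median log2 fold change was -0.28, against 0.01 over all genes tested, with 37 of 52 lower and 15 higher. Of these, 7 were lower without overlap, a share near the 12.8% of all genes. None passed the adjusted threshold, and 10 lower and 1 higher (*Ido1*) had an unadjusted edgeR p under 0.05, against 7.34% and 8.7% of all genes. In cultured NC against untreated cells edgeR called 3668 of 14199 genes (25.8%), or 6046 without the first NC library and 1928 and 1659 without the first and the second untreated library. Of the 25 interferon-stimulated genes tested there, 9 fell and none rose, where 12.4% of all genes fell and 13.4% rose. *Cd74*, the invariant chain of MHC class II, was at 62.6, 125 and 154 CPM in EV and 61.2, 26.5 and 29.4 CPM in sgNC tumors, adjoining ranges (log2 fold change -1.54, SE 0.43, edgeR adjusted p = 0.23). *Ciita*, the activator of MHC class II genes, was at 3.11, 5.29 and 7.64 and 2.86, 2.58 and 2.22 CPM. *B2m*, the light chain of MHC class I, was at 976, 1086 and 940.0 CPM in EV and 1143, 521 and 1239 CPM in sgNC tumors, where only the second tumor was low, and its difference was -0.05 with that tumor and 0.24 without it. Heavy chains of MHC class I and the MHC class II chains were not analysed here.

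Markers of host cells were compared as lists, and no member of any list passed the adjusted threshold in the 6 tumors. In bulk tumor RNA, fewer cells of a type, less RNA per cell and RNA of the tumor cells themselves cannot be told apart. The macrophage and dendritic cell list was lower by a median of -0.26, with 13 of 16 genes lower, and of -0.55 without the second sgNC tumor. The summed list, as mean log2 CPM, ranged over 3.81 to 4.46 in sgNC and 4.25 to 4.52 in EV tumors, and overlapped. *Adgre1*, which encodes the macrophage marker F4/80, was at 16.9, 15.4 and 20.6 CPM in EV and 8.43, 13.1 and 10.6 CPM in sgNC tumors, whereas *Cd14* was at 7.78, 8.5 and 6.56 and 11.2, 27.4 and 20.6 CPM, in the opposite order. The fibroblast list had a median of -0.22 (9 of 14 lower) and -0.47 without that tumor. The endothelial list had a median of 0.21 (13 of 14 higher), which was 0.08 without it, and its levels were 3.58 to 3.86 in sgNC and 3.43 to 3.62 in EV tumors. In culture, without host tissue, 6 fibroblast genes were also tested, with a median of -0.88 in NC against untreated cells. Of these, 4 were called lower and 1 higher, where 12.4% and 13.4% of all genes were. The macrophage and endothelial lists had 5 and 3 genes tested there, with medians of 0.38 and -0.17.

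T cell and B cell RNA was scarce in both lines. Of 16 T and NK cell genes 5 passed the count filter, and none of 7 B and plasma cell genes did. *Cd8a*, a chain of the CD8 coreceptor named here after its values were seen, was at 13.7, 8.04 and 10.6 CPM in EV and 3.37, 2.58 and 3.02 CPM in sgNC tumors, with no overlap (log2 fold change -1.84, SE 0.24, edgeR adjusted p = 0.151, and 0.0393 without the second sgNC tumor). The partner chain *Cd8b1* was at 1.22, 0.575 and 0.645 and 1.1, 1.09 and 0.476 CPM and *Cd3d*, a chain of the T cell receptor complex, at 5.11, 4.14 and 5.16 and 5.14, 6.35 and 5.64 CPM, with log2 fold changes of 0.11 and 0.25. *Cd8a* also passed the count filter in cultured NC and untreated cells, where its log2 fold change was -0.09 (adjusted p = 0.83), so its reads were also counted without host tissue.

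Red blood cell genes were higher in the sgNC tumors by a median of 1.86 over 5 of 5 genes, none called. In cultured cells, without blood, 2 genes of the list were tested. Both were called lower in NC than in untreated cells (12.4% of all genes), with a median of -5.79, opposite to the tumors. *Hbb-bs*, a beta globin, was at 26.9, 62.7 and 57 CPM in EV and 50.6, 452 and 209 CPM in sgNC tumors, highest in the second tumor and overlapping between the lines. Reads may be shared among the globin genes. The part of blood, of host cells and of the state of the second sgNC tumor in the other differences was not tested.

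Among the lists of tumor cell programs, cholesterol synthesis was the most uniform. It was lower in sgNC for 20 of 21 genes, 7 of them without overlap (12.8% of all genes), with a median of -0.33, or -0.42 without the second sgNC tumor. *Insig1*, the sterol-regulated retention factor of the pathway, was at 43.3, 49.4 and 34.1 CPM in EV and 21.1, 23.3 and 29.1 CPM in sgNC tumors (log2 fold change -0.78, SE 0.18, edgeR adjusted p = 0.222). *Fdps*, which makes farnesyl diphosphate, was at 51.3, 53.7 and 46.9 and 26.8, 27.1 and 40.1 CPM (log2 fold change -0.69). For both genes every sgNC tumor was below every EV tumor. In culture 18 of the 21 genes fell in NC against untreated cells and none rose (12.4% and 13.4% of all genes), with a median of -0.63. There, *Insig1* differed by -1.07 (edgeR adjusted p = 7.54e-05).

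Keratins were higher by a median of 1.81 over 10 tested genes, a value that rested on the second sgNC tumor and was 0.17 without it. They split in direction. *Krt4* and *Krt78*, keratins of stratified epithelia, were at 53.9, 72.9 and 43.4 and 42.6, 53.3 and 29 CPM in EV and 112, 807 and 187 and 74.8, 464 and 101 CPM in sgNC tumors, while *Krt7*, of simple epithelia, was lower, at 634, 474 and 529 against 341, 261 and 297 CPM (log2 fold change -0.86, SE 0.15, edgeR adjusted p = 0.215, and 0.0468 without the second tumor). In culture *Krt7* also fell in the NC cells (log2 fold change -0.72, adjusted p = 8.55e-05). The proliferation list was lower for 36 of 40 genes with a median of -0.17, but higher by 0.13 without the second tumor, whose level of 5.10 (mean log2 CPM) was below the 6.01 to 6.23 of the other 5. The hypoxia and glycolysis list likewise stood at 6.23 in that tumor and 6.81 to 7.16 in the others, with a median difference of -0.32, or -0.15 without it. Of 5 germline genes tested, 4 were higher without overlap (12.4% of all genes), and without the second tumor edgeR called 3 (0.783% of all genes): *Tex101*, *Xlr4a* at 1.0, 0.46 and 0.538 CPM in EV and 4.21, 1.09 and 10.1 CPM in sgNC tumors, and *Tdrd9*, a helicase of the piRNA pathway, at 37.8, 56.3 and 44.4 and 92.6, 101 and 119 CPM. *Abcc2*, an efflux transporter named after its values were seen, was at 77.6, 60.3 and 64.4 CPM in EV and 23.8, 3.77 and 17.4 CPM in sgNC tumors (log2 fold change -2.16, SE 0.54, edgeR adjusted p = 0.222, and 0.00692 without the second tumor).

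**Figure D3:**
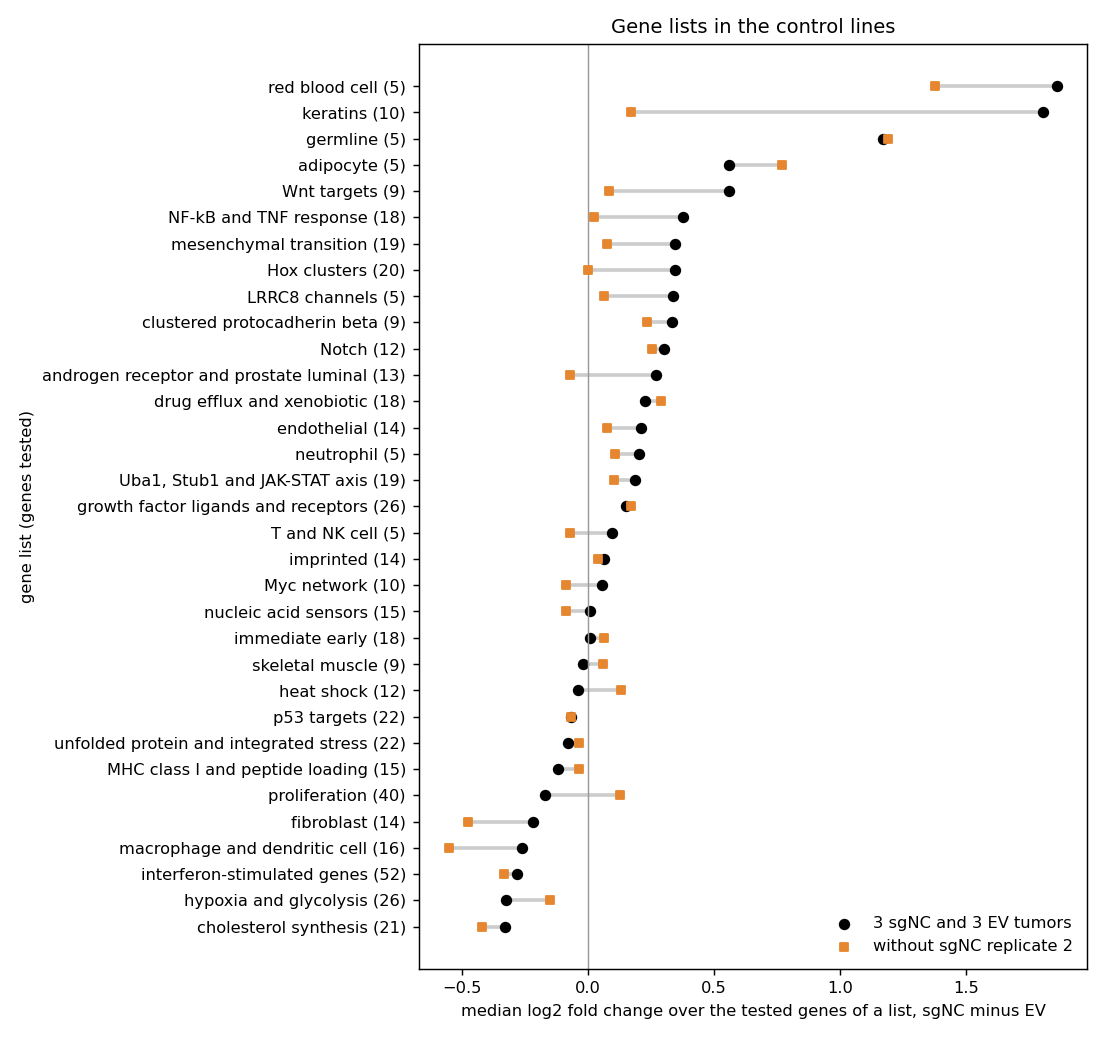
Median log2 fold change (sgNC minus EV) over the tested genes of each list with at least 5 of them, from all 6 tumors (black) and without the second sgNC tumor (orange), with the number of genes tested in brackets. Keratins moved from 1.81 to 0.17 and proliferation from -0.17 to 0.13, while cholesterol synthesis moved from -0.33 to -0.42.

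Differences were also arranged along the chromosomes. Medians over the genes of a chromosome lay between -0.13 (chromosome 15, 522 genes) and 0.10 (chromosome 5, 837 genes) for chromosomes 1 to 19 and X. On chromosome 15 the 3 sgNC tumors were at -0.13, -0.19 and -0.09 against the mean of the EV tumors, whose own values were each 0.00 when rounded, and the cultured NC cells were at -0.17 against untreated cells. On chromosome 5 the sgNC tumors were at 0.11, 0.06 and 0.09 and the NC cells at 0.12. Chromosome 19 was at 0.27 in the second sgNC tumor, and at -0.13 and 0.03 in its mates, while the EV tumors spread from -0.08 to 0.08. On chromosome 2 the cultured cells differed by 0.28, but the tumors by 0.06. None of 273 blocks of 50 neighbouring genes reached a median of 0.3 in size between the control lines, whereas 12 did between the cultured lines.

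**Figure D4:**
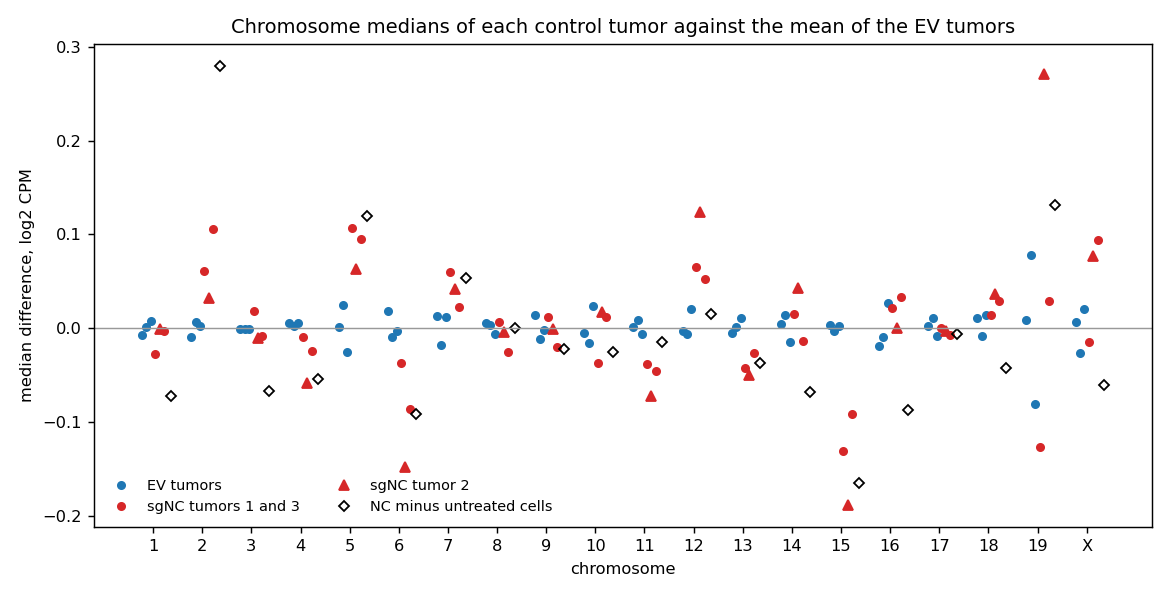
Median difference in log2 CPM of each control tumor from the mean of the EV tumors over the genes of each chromosome (points), with the median log2 fold change of cultured NC against untreated cells (open diamonds). On chromosome 15 all 3 sgNC tumors and the NC cells were low, and on chromosome 19 the second sgNC tumor was at 0.27, apart from its mates.

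At a finer scale a stretch of chromosome 17 was lower for nearly all of its genes. In windows of 15 neighbouring genes the lowest median was -0.57, at chr17:56162477-56626887 (GRCm38), and the highest 0.70, at chr11:98836785-100293711, which holds the keratin cluster with *Krt19* and *Krt15* and was 0.46 without the second sgNC tumor. Windows past 0.3 in size formed 26 higher and 18 lower stretches, 8 of the lower on chromosome 15. Among the higher, chr5:5537454-8997324 reached 0.64, and 0.43 without the second sgNC tumor. The chromosome 17 stretch was chosen after values were seen, as a run of at least 5 genes within 2 Mb at which all sgNC tumors lay below all EV, OE, sgUba1 and vehicle tumors, and is given without a test. It ran from *Mydgf* to *Ndufa11* over chr17:56175744-56722141. Of its 18 tested genes 17 were lower in sgNC, 16 of them without overlap, where 12.8% of all genes were. The 6 genes that met the rule are lower without overlap by that choice, so these counts are no independent evidence about the stretch. Its median was -0.55, or -0.46 without the second sgNC tumor, while the 20 tested genes on either side had medians of 0.08 and 0.00. The sgNC tumors were at -0.29, -0.61 and -0.47, the EV tumors at 0.06, 0.00 and -0.02, and the 6 vehicle tumors between -0.13 and -0.01.

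The genes of the stretch have unrelated roles. *Mydgf*, a secreted growth factor, was at 86.1, 75.5 and 70.5 CPM in EV and 54.8, 37.1 and 54.5 CPM in sgNC tumors (log2 fold change -0.66, SE 0.17). *Kdm4b*, a histone H3 lysine 9 demethylase, was at 57.4, 51.1 and 56.9 and 40.6, 41.6 and 32.3 CPM (log2 fold change -0.53, SE 0.12). *Micos13*, a subunit of the complex that shapes mitochondrial cristae, was at 35.7, 39 and 28.1 and 23.3, 16.8 and 20.2 CPM (log2 fold change -0.76, SE 0.18). Like these, *Fem1a*, a substrate receptor of a cullin ligase, *Ndufa11*, a subunit of respiratory complex I, and the Ran-binding protein gene *Ranbp3*, were in every sgNC tumor below every one of the 20 EV, OE, sgUba1 and vehicle tumors. These 6 genes are the ones by which the stretch was chosen. *Uhrf1*, which maintains DNA methylation through replication, *Ticam1*, the adaptor of Toll-like receptor 3, *Plin3*, a lipid droplet protein, and the mitochondrial protease *Lonp1* were also lower without overlap between the control lines, with log2 fold changes of -0.83, -0.82, -0.69 and -0.57. *Catsperd*, a sperm channel subunit, alone was higher, by 0.16 (SE 0.18), with overlap. In culture the median of the stretch was -0.29 in NC against untreated cells, with 7 genes called lower (*Mydgf*, *Plin3*, *Kdm4b*, *Micos13*, *Lonp1*, *Catsperd* and *Ndufa11*) and 2, *Safb* and *Safb2*, called higher, against 12.4% and 13.4% of all genes. The same rule found a run in the other direction at chr7:126766334-127925837, but of its 56 tested genes 35 were higher and the median was 0.06 in tumors, against 0.34 in cultured cells, where 27 of 53 were called higher (13.4% of all genes) and 1 lower.

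**Figure D5:**
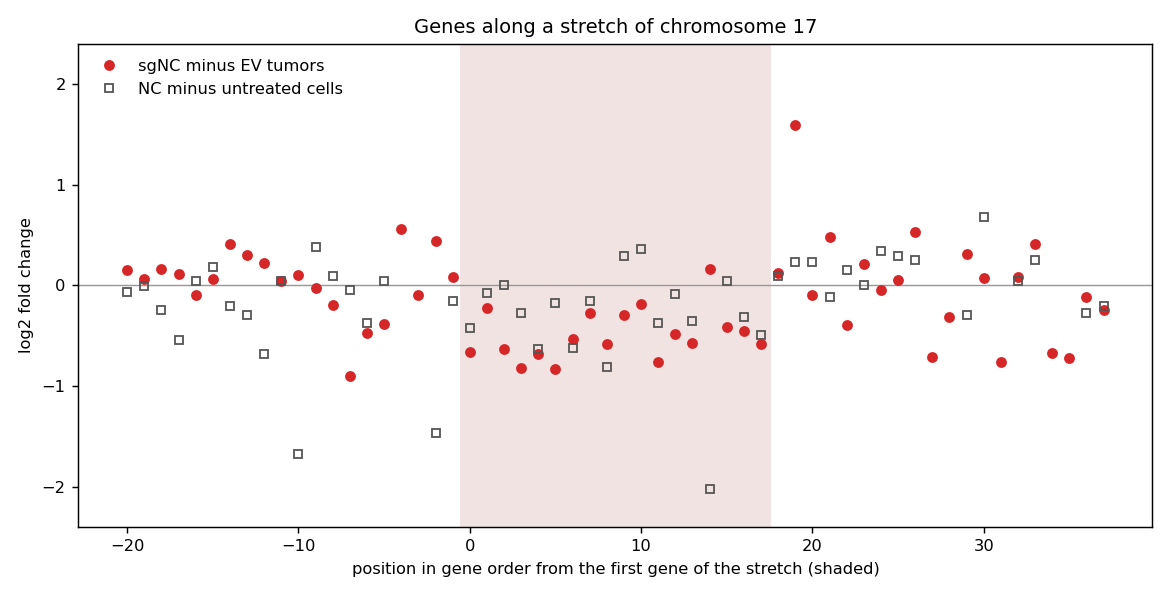
Log2 fold change of 58 tested genes of chromosome 17 in their order along the chromosome, for sgNC minus EV tumors (red points) and NC minus untreated cells (open squares), with the 18 genes of the stretch shaded. All but 1 of the red points in the shaded part lie below 0, and the points on either side scatter around 0.

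The 618 genes that separated the control lines were then followed in samples that took no part in choosing them. In the cultured cells, 35.7% of the tested genes lower in sgNC were called lower in NC against untreated cells and 3.04% higher, against 12.4% and 13.4% of all genes. Of those higher in sgNC 29.1% were called higher and 17% lower. In counts, 94 lower and 89 higher genes were called in the same direction as in tumors, and 8 lower and 52 higher genes in the opposite direction. Between sgUba1 and OE tumors, another pair of a guide line and a vector line, 3005 of 15776 genes were called (19%; 9.43% higher and 9.62% lower). This pair also differs in *Uba1*, so line and *Uba1* cannot be told apart there. Of the genes higher in sgNC than EV, 34.6% were lower in sgUba1 than OE and 2.88% higher, and of those lower in sgNC 17.4% were higher and 8.22% lower. Without the 4 tumors labelled sgUba1 that kept high *Uba1*, these shares were 20.8% lower and 7.35% higher, and 4.61% higher and 6.91% lower, against 5.51% of all genes higher and 7.05% lower, so the opposite direction of the genes lower in sgNC rested on those 4. Without the first or the second OE tumor the calls among all genes were 1384 and 1403. With the 1069 genes chosen without the second sgNC tumor, these shares were 36.5% and 4.35%, 34.5% and 15.7%, 35.9% and 5.51%, and 18.4% and 7.43%, in the same order.

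To see which control line lay farther from tumors of cells without either vector, each line's mean was set against that of the vehicle tumors. Over all 13637 genes with a mean log2 CPM of at least 1, the sgNC tumors were farther for 49.1%. Over the 314 genes higher in sgNC than EV the sgNC tumors were farther for 24.2%. For most of them the EV tumors were thus the farther from vehicle, as for *Krt15*, *Clcf1* and *Rab3b*. The low level of these genes was not particular to EV. The sgUba1 tumors were at 1.49 to 76.9, 0.714 to 7.48 and 0.28 to 9.15 CPM, and the OE tumors at 245 to 1169, 17.7 to 74.8 and 22.9 to 52.9 CPM. Over the 304 lower genes the share was 52.3%. The vehicle libraries were deeper, at 26892692 to 35046975 counts, and came from another experiment, whose part in these distances was not tested.

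Genes at which all 3 tumors of a control line lay beyond 20 others (those of the other control line and the OE, sgUba1 and vehicle tumors, without the TAK-243-treated tumors, which were not compared here) give a stricter view of what was particular to a line. There were 43 such genes above (0.315% of 13637) and 41 below (0.301%) for sgNC, and 28 above (0.205%) and 27 below (0.198%) for EV. Of the 41 sgNC genes below, 16 were also lowest in the NC cells against the other 4 cultured libraries and 0 were highest, where 19% of all genes were lowest. Of the 43 above, 16 were also highest in the NC cells and 4 lowest, against 16.8% of all genes highest. *Arfgef3*, named after its values were seen like the genes that follow, was at 51.3, 49.6 and 50.9 CPM in EV and 31.5, 16.9 and 16 CPM in sgNC tumors, 36.4 to 64.3 CPM in vehicle tumors, and lower in NC than untreated cells by a log2 fold change of -1.45 (edgeR adjusted p = 3.14e-05). *Ccl2*, the chemokine that attracts monocytes, was at 4.44, 4.6 and 3.01 CPM in EV and 1.77, 1.39 and 1.43 CPM in sgNC tumors, with 1.92 to 4.75 CPM in OE, 2.61 to 11.5 CPM in sgUba1 and 2.13 to 3.56 CPM in vehicle tumors, and at 0 in the cultured cells. On the EV side *Abcb9*, a lysosomal peptide transporter, was at 34.1, 26.8 and 29.7 CPM in EV and 13.1, 16.6 and 11.9 CPM in sgNC tumors, and at 14.3 to 21 CPM in OE and 12 to 22.3 CPM in vehicle tumors. *Ass1*, the enzyme that makes argininosuccinate, was at 129, 86.5 and 104 CPM in EV and 60.3, 15.6 and 45.7 CPM in sgNC tumors, and at most at 71.9 CPM in the others.

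Because each control line is the reference for another arm, the choice of control was exchanged. With their own control, 492 of 16202 genes differed between sgUba1 and sgNC tumors (3.04%) and 4 of 14853 between OE and EV tumors (0.0269%). With the other control, 73 of 16124 differed between sgUba1 and EV tumors (0.453%) and 4 of 15260 between OE and sgNC tumors (0.0262%). These comparisons share their sgUba1 or OE tumors and their controls, so each is given with its own values only. Without the 4 tumors labelled sgUba1 that kept high *Uba1*, 1 gene was called against sgNC and 1268 against EV. Leaving out the second sgNC tumor left 10 genes against sgNC, and leaving out the third left 35. Without the first or the second EV tumor edgeR called 0 genes between sgUba1 and EV tumors (1441 and 1614 at an unadjusted p under 0.05), and without the third 9. Between OE and EV tumors it called 386 without the first OE tumor, 153 without the fourth, 1 without the second or the third, 2 without the first EV tumor, and 0 without the second or the third EV tumor (1845 and 1683 at an unadjusted p under 0.05). Between OE and sgNC tumors it called 0 to 5 when a tumor was left out, with 0 without the third sgNC or the second OE tumor (1412 and 1094 at an unadjusted p under 0.05).

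*Krt19* shows how a call can turn on the control. Against EV it rose in OE tumors by 2.16 (SE 0.21, edgeR adjusted p = 0.0415), the OE tumors being at 105 to 162 CPM. Against sgNC its difference in the same tumors was -1.87 (SE 0.47, adjusted p = 0.314), of the opposite sign. Vehicle tumors, at 65.5 to 321 CPM of *Krt19*, lay above every EV tumor and overlapped the sgNC tumors. In the sgUba1 tumors, at 2.84 to 54.6 CPM, it fell against sgNC by 5.22 on the log2 scale (SE 0.85, adjusted p = 0.0199) and differed from EV by -1.14 (SE 0.77, adjusted p = 0.50). *Krt78* rose in OE tumors against EV by 2.63 (adjusted p = 0.0425) and differed from sgNC by 0.33 (adjusted p = 0.832), whereas in sgUba1 tumors it fell against both controls, with log2 fold changes of -5.14 and -2.79 (adjusted p = 0.0102 and 0.0208). Without the 4 tumors that kept high *Uba1* the differences from sgNC were -4.43 for *Krt19* and -5.03 for *Krt78* (adjusted p = 0.134 and 0.116), and those from EV -0.34 and -2.68 (adjusted p = 0.816 and 0.0121).

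*Cd74* fell in OE tumors against EV, with a log2 fold change of -2.56 (SE 0.27, edgeR adjusted p = 0.0425). Against sgNC the difference was -0.98 (SE 0.29, adjusted p = 0.339), in the same direction and past no threshold. The OE tumors were at 18.1 to 21.4 CPM, below all 6 control tumors. Of the 4 genes called between OE and sgNC tumors, *Uba1* rose by 1.19 (SE 0.11, adjusted p = 0.0185), close to its 1.27 against EV (SE 0.09, adjusted p = 0.00503). The other 3, *Vwa3a*, *Tekt2* and *Tdrd9*, fell with log2 fold changes of -4.72, -4.01 and -2.06 (adjusted p = 0.00619, 0.0145 and 0.0216). All 3 were higher in sgNC than in EV tumors without overlap. *Tekt2*, a tektin of ciliary microtubules, was at 0.889, 0.919 and 1.29 CPM in EV, 6.82, 7.15 and 5.79 CPM in sgNC and 0.202 to 0.657 CPM in OE tumors. Among the sgUba1 tumors *Tekt2* was at 2.89 to 6.62 CPM in the 3 with low *Uba1* and 0.28 to 0.425 CPM in the 4 with high *Uba1*, and *Tdrd9* at 58.6 to 103 and 1.22 to 2.38 CPM.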

How the data were processed

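RNA from 6 Myc-CaP control tumors (3 sgNC, 3 EV) was compared, with 23 further Myc-CaP libraries as reference. The authors deposited estimated counts and TPM values per gene for 51 libraries. The submitters' processing notes name kallisto and mm10. The library kit depleted ribosomal RNA per the study's methods and selected poly-A RNA per the labels, and strand use in quantification was not given in the sources used here, so reads of overlapping or antisense genes cannot be told apart. Groups were taken from the sample titles.

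The estimated counts were rounded to whole numbers, which replaced the count table assumed when the tests were set, filtered with filterByExpr and tested with edgeR 4.0.16 (R 4.3.3), TMM scaling and the quasi-likelihood test, each comparison fitted on its own groups, with Benjamini-Hochberg adjustment over all genes tested and a threshold of 0.05. All tests were two-sided. CPM are scaled to the TMM-adjusted library size, and log2 CPM levels of tumors and lists carry a prior count of 2. A permutation of 3 against 3 tumors cannot go below p = 0.1. The difference of differences used 1 edgeR fit over the EV, sgNC, OE and sgUba1 tumors. DESeq2 1.42.0 and limma 3.58.1 were alternatives, the latter also on log2(TPM + 1) and log2(TPM + 0.1). Other alternatives were RLE scaling, no filter, at least 10 counts in every library, thinning to the smallest library, 1 fit over all 17 tumors, a replicate block, a Bonferroni threshold, and each EV, sgNC and OE tumor and each NC and untreated cell library left out in turn (no single sgUba1 tumor was). Scripts were tested on simulated counts.

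The 12 largest log2 fold changes in each direction were named among genes whose lines did not overlap, whose mean log2 CPM reached 1 and whose p before adjustment was under 0.01, together with Uba1, Stub1, Jak1, Ifngr1, Cxcl9, Cxcl10, B2m and Cd74. Some genes of the lists are not reported here by name. The members and gene lists were chosen with earlier results of these data known. The lists also covered MHC class I loading, nucleic acid sensors, neutrophils, skeletal muscle, skin keratinocytes, the neuroendocrine program, protocadherins, sex-linked and imprinted genes, LRRC8 channels, p53 targets, the Myc network, stress responses, immediate early genes and growth factors. Positions came from GENCODE M21 on GRCm38, which matched 99.5% of the gene identifiers. Guide sequences are the designed ones, and promoter windows of 250 bases before to 50 after each start came from RefSeq. Intervals on ratios of low counts cover counting error only.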

Additional observations from a re-analysis of the deposited data

Results flagged for a closer look

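In 18 of 96 sets of a named gene and a group of 4 to 7 samples, 1 sample lay far from the rest by Dixon's test on the range. Its limits give about 1 in 20 by chance for normally distributed values. They were applied to CPM without a log, which are skewed, so that rate does not hold here. The genes of 1 tumor are also not independent. The third sgUba1 tumor accounted for 6 of them, with 14.7 CPM of *Cck*, 7.48 of *Clcf1*, 25.8 of *Ido1*, 76.9 of *Krt15*, 50.7 of *Retnla* and 312 CPM of *Cd74*. Other sgUba1 tumors held 54.6 CPM of *Krt19* (the second) and 1.21 CPM of *Slc14a1* (the sixth). The first OE tumor held 11.0 CPM of *Slc14a1*, 71.8 CPM of *Cck* and 1169 CPM of *Krt15*, and the third OE tumor 6.92 CPM of *Kcnj12*, 10.1 CPM of *Ptpru* and 30.3 CPM of *Ifngr1*. The fourth vehicle tumor held 6.66 CPM of *Tex101*, 10.7 CPM of *Saa1* and 25.7 CPM of *Saa4*, and the fifth 14.0 CPM of *Slc14a1*. Groups of 3 were not tested, so the second sgNC tumor could not appear here.

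For 20 of 32 named genes the difference sgNC minus EV was unlike the difference sgUba1 minus OE by a test of the difference itself (edgeR interaction, adjusted p under 0.05, as for 1698 of 16502 genes, 10.3%). The named genes were chosen by the first of these differences, so for 24 of them the result is no independent evidence. The log2 differences of differences were 5.96 for *Mrap*, 5.78 for *Vwa3a*, 6.52 for *Kcnj12*, 7.84 for *Slc14a1*, 7.61 for *Cck*, 7.38 for *Krt19*, 7.80 for *Clcf1*, 5.89 for *Tex101*, 6.48 for *Rab3b*, 5.19 for *Ido1* and 7.48 for *Krt15*. They were -3.54 for *Apoa1*, -9.21 for *Retnla*, -6.11 for *Cyp2f2*, -5.33 for *Cdcp3*, -2.77 for *Sema5a* and -7.14 for *Fam89a*. Among the genes set by the study's question they were 1.40 for *Uba1*, the targeted gene of the sgUba1 and OE lines, -2.49 for *Cxcl10* and -4.17 for *Cd74*. Without the 4 tumors labelled sgUba1 that kept high *Uba1*, 1479 of 16080 genes were called (9.2%), and 14 of the 20 genes stayed past the threshold, each of the 20 with the same sign. The 6 that did not were *Cck* at 6.40, *Apoa1* at -2.76, *Cyp2f2* at -3.87, *Cdcp3* at -2.43, *Sema5a* at -1.49 and *Cxcl10* at -2.75 (edgeR adjusted p = 0.0563, 0.118, 0.0745, 0.224, 0.140 and 0.0600). *Fam89a* was at -4.21 there (adjusted p = 0.0489).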

How the results depend on the processing

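Against 1 call between the control lines, DESeq2 gave 417, limma-voom 2, no count filter 11, at least 10 counts in every library 0, 1 fit over 17 tumors 3, thinned counts 4, limma on log2(TPM + 1) 8 and on log2(TPM + 0.1) 4, and leaving out 1 of the 6 tumors gave 1 to 119. Scaling moved the median of all genes by under 0.1. DESeq2 called 1862 genes between sgUba1 and sgNC, 621 between sgUba1 and EV, 707 between OE and EV, 229 between OE and sgNC and 2553 in the difference of differences. Leaving out 1 EV, sgNC or OE tumor or cell library (no sgUba1 tumor was left out singly) gave 1384 to 2700 calls between sgUba1 and OE, 1659 to 6046 in cultured cells, 10 to 688 between sgUba1 and sgNC, 0 to 9 between sgUba1 and EV, 0 to 386 between OE and EV, 0 to 5 between OE and sgNC and 753 to 1979 in the difference of differences. Without the 4 tumors labelled sgUba1 that kept high *Uba1*, an alternative chosen after seeing the data, sgUba1 against OE gave 1959 calls, against sgNC 1 and against EV 1268, and the difference of differences 1479. A replicate block gave 14 calls between the control lines, 273 between sgUba1 and OE, 4 between sgUba1 and sgNC, 1119 between sgUba1 and EV, 0 for OE against EV and against sgNC (2717 and 838 at an unadjusted p under 0.05) and 972 in the difference of differences, but same-numbered sgNC and EV tumors deviated together by correlations of 0.09, 0.06 and -0.06 only, so the numbers did not pair them. *Stub1* lay between -0.050 and 0.0039 when a tumor was left out, positive without the second sgNC tumor. *B2m* lay between -0.26 and 0.24, positive without that tumor or, at 0.01, the second EV tumor. The other values of named genes kept their direction, 67 of them past the threshold only under an alternative. The causes were not tested. At 8651963 to 12552766 counts, genes near 1 CPM rest on about 10 counts a library.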

Other observations

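Among the lists of signalling and patterning genes, the Notch pathway was higher in sgNC for 11 of 12 genes, with a median log2 fold change of 0.30, or 0.26 without the second sgNC tumor. The Hox clusters, which specify position along the body, were higher for 16 of 20 genes by a median of 0.35, which was 0.00 without that tumor, Wnt targets by 0.56 (6 of 9) and 0.09, NF-kB and TNF response genes by 0.38 (13 of 18) and 0.02, and LRRC8 volume-regulated channels by 0.34 (4 of 5) and 0.06. Mesenchymal transition genes had a median of 0.35 (14 of 19 higher), or 0.08 without that tumor, where edgeR called 3 of them and 0.783% of all genes. These were *Tgfbi*, a matrix protein induced by TGF-beta, at 16.6 to 19.9 CPM in EV and 9.02, 14.6 and 9.45 CPM in sgNC tumors, and the integrin chains *Itgb3*, at 19.9, 26.7 and 32 and 57.3, 187 and 66.8 CPM, and *Itga5*, at 81.5, 96.6 and 96.8 and 141, 795 and 197 CPM (adjusted p = 0.0349, 0.0322 and 0.0468). The androgen receptor and prostate luminal list was at 0.27 (8 of 13 higher), or -0.07 without that tumor.

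In lists named for other cell types, adipocyte genes were higher for 5 of 5 by a median of 0.56 (0.77 without the second sgNC tumor) and the skin keratinocyte genes that were tested, 2 of 13 in the list, by 2.11 (0.99 without it). In cultured cells 4 genes of the adipocyte list and 2 of the skin keratinocyte list were tested too. Reads of such genes were thus also counted without host tissue. Neutrophil genes were at 0.20 (3 of 5 higher), T and NK cell genes at 0.09 (3 of 5 higher), skeletal muscle genes at -0.02 (4 of 9 higher) and the neuroendocrine program at -0.03 (0 of 2 higher). Clustered protocadherins were at 0.33 (7 of 9 higher) in tumors and -0.92 in cultured cells.

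The median over all genes tested was 0.01. MHC class I and peptide loading was at -0.12 (5 of 15 higher), nucleic acid sensors at 0.01 (8 of 15), drug efflux and xenobiotic genes at 0.23 (11 of 18), p53 targets at -0.07 (8 of 22) and the *Myc* network at 0.06 (6 of 10). The unfolded protein and integrated stress list was at -0.08 (10 of 22 higher), heat shock at -0.04 (4 of 12), immediate early genes at 0.01 (9 of 18) and growth factors with their receptors at 0.15 (15 of 26). Imprinted genes were at 0.06 (8 of 14 higher), X inactivation genes at 0.18 (4 of 4) and Y-linked genes at -0.33 (1 of 4). No gene of these lists passed the adjusted threshold in the 6 tumors.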
